A study of Mus musculus with 6 samples.

Results

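Siva1 and Bcl2l1 were each read by 4 probe sets on the arrays of this study, 8 of 45037 non-control probe sets in all. They were found by gene symbol in the platform annotation, and 0 of the 8 also carried the symbol of another gene. The arrays profiled neutrophils from the peripheral blood of 3 phd3 null mice and 3 wild-type mice. All mice were on a C57 background, with the wild-type source labelled bl6, and each array came from 1 mouse. Per the labels, the cells were purified by negative magnetic selection and both genotypes were kept in hypoxia (3% oxygen) for 4 h before RNA extraction, and no array of cells at normal oxygen was used here. The labels do not say which part of phd3, now named Egln3, is deleted, whether it is absent from every cell type of the mouse, or what sex the animals were.

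SIVA1 is a pro-apoptotic adaptor that was first found as a protein bound to the cytoplasmic tail of CD27, a receptor of the tumour necrosis factor family. It also binds the survival proteins BCL-XL and XIAP. Bcl2l1 encodes BCL-XL, which holds BAX, BAK and BH3-only proteins in check at the mitochondrion, and by alternative splicing also a short form that promotes death. Which of these forms each Bcl2l1 probe set reads could not be worked out here. Neutrophils are short-lived cells whose apoptosis is delayed in hypoxia, a response in which hypoxia-inducible factor (HIF) and its prolyl hydroxylases, PHD3 among them, take part. The published study discusses Siva1 and BCL-XL in the survival of hypoxic neutrophils, so a direction in these 2 genes is not independent evidence here. The arrays measure RNA only, and protein levels and survival were not analysed here.

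The deposited values are MAS5 signals, a linear brightness per probe set scaled to the same trimmed mean on every array. Every difference is phd3 null minus wild type, on the log2(signal + 16) scale, with the standard error (SE) of limma. The added 16 makes differences of dim probe sets smaller. Adjusted p-values run over all 45037 probe sets, except that those of the test between probe sets of 1 gene run over its 16752 pairs. Pairs are the phd3 null and wild-type samples of the same number, which also share a code in the source labels. In Affymetrix naming, a probe set ending in _at reads 1 transcript, one ending in _a_at reads several transcript forms of 1 gene, and one ending in _x_at has probes that can match other transcripts. Group differences are taken within a probe set. Brighter, dim and above or below the median level only sort probe sets by signal, which does not compare amounts of RNA, and sums over a marker list are set side by side between arrays only.

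The targeted gene was low in the phd3 null samples. By its brighter probe set, Egln3 was at 87.2, 29.6 and 73.5 in phd3 null samples 1 to 3, against 2088, 1733.9 and 327 in wild-type samples 1 to 3 (log2 difference -3.85, SE 0.55, limma adjusted p = 0.181, and 3.09e-05 with the replicate number as a block). Both arrays of number 3 stood apart from the others: their median correlation with the remaining arrays came to 0.740 for the phd3 null array and 0.771 for the wild-type array, while the other 4 had 0.794 to 0.812. Main results on the probe sets are therefore also given without this pair where it moves a value by over 1.5 times or turns its sign. Xist, an X-linked RNA that silences an X chromosome in female cells, read 203.4, 72.9 and 98.5 in phd3 null against 292, 1180.4 and 1061 in wild type. The Y-linked gene Eif2s3y read 576.2, 585.4 and 144.3 in phd3 null against 558.4, 54 and 38.7 in wild type. Both are given by their probe set of highest mean level. Other probe sets of Xist, Eif2s3y and the Y-linked Uty and Kdm5d were dimmer, and they did not all follow. Xist 1427262_at was at 79.1, 22.4 and 3.7 in phd3 null, against 41.7, 695.3 and 476.7 in wild type. Uty 1422247_a_at was at 62.3, 63.3 and 104.2 in phd3 null, against 107.2, 35.4 and 75.8 in wild type. The part of a difference in sex in the results below was not tested.

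Marker genes of other blood cells were present. Of 12 listed neutrophil markers 10 were measured, among them S100a8, a calcium-binding alarmin, with signals from 11102.8 to 20428.6 in phd3 null and from 17949 to 25479.7 in wild type. Of the 10, 3 were above 0 (Csf3r at 0.39, Mmp9 at 0.21 and Ltf at 0.14) and 7 below, and the list had a median log2 difference of -0.18, or 0.22 without phd3 null sample 3. Their summed signal was 40990, 51200 and 25870 in phd3 null, against 57060, 47360 and 43080 in wild type, lowest in phd3 null sample 3, where the chemokine receptor gene Cxcr2 read 25.6. The summed signal of 6 monocyte markers was 22360, 19890 and 5962 in phd3 null, against 18520, 19810 and 6713 in wild type, with Csf1r, the receptor for macrophage colony-stimulating factor, at 3537.6 to 10857.8 in phd3 null and 4048.6 to 11088.3 in wild type. The 6 measured B cell markers summed to 310.4, 477.8 and 3060 in phd3 null, against 299.8, 534.3 and 2375 in wild type, so the arrays of number 3 were high in both genotypes. In bulk RNA, fewer cells of a type and less RNA per cell cannot be told apart.

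Across the 8 probe sets, Siva1 and Bcl2l1 gave no call in limma, and each gene had 2 probe sets above 0 and 2 below. Both signs were also found in 83.6% of the 1093 genes with 4 probe sets. With no block, 0 of the 8 passed an adjusted p of 0.05, as did 0% of all probe sets, while 1 of 8 had an unadjusted p under 0.05, against 3.07% of all probe sets. With the replicate block 0 of 8 passed, against 0.0133% of all probe sets, or 6 of 45037, and 1 of 8 had an unadjusted p under 0.05, against 5.11%. The phd3 null signals lay above all wild-type signals for 2 of 8 probe sets, both of Siva1, against 4.97% of all probe sets, and below them for 0 of 8, against 3.56%. The same 2 probe sets were higher in 3 of 3 pairs, against 14.1% of all probe sets. An exact permutation test of 3 samples against 3 cannot give a two-sided p below 0.1.

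**Figure D1:**
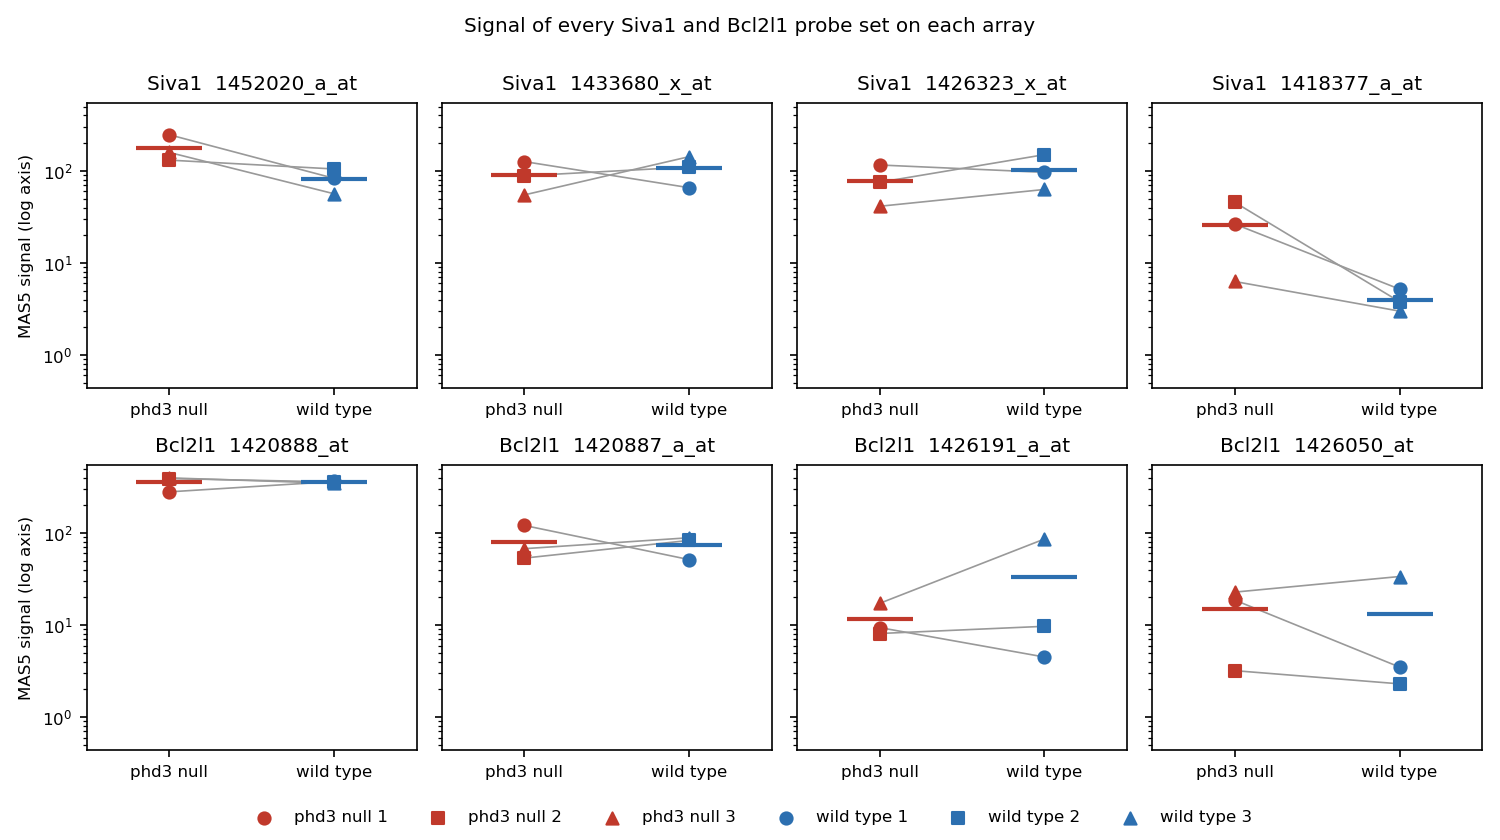
MAS5 signal on a log axis for the 4 Siva1 (top) and 4 Bcl2l1 (bottom) probe sets, with 1 point per array, phd3 null in red on the left and wild type in blue on the right. Grey lines join samples of the same number and bars mark group means. The phd3 null points lie above every wild-type point for 1452020_a_at and 1418377_a_at, and the groups overlap for the other 6.

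The Siva1 probe set of highest mean log2 level, 1452020_a_at, was designed from accession AF033112. Its signal was 247.2, 131 and 158.8 in phd3 null samples 1 to 3, against 83, 105 and 56.4 in wild-type samples 1 to 3. Each phd3 null sample was above each wild-type sample, and the nearest values were those of pair 2, at 131 and 105. Phd3 null averaged 179.0 ± 60.7, against 81.5 ± 24.3 in wild type (SD, n = 3 each). This gave a log2 difference of 0.99 (SE 0.41, 95% interval 0.11 to 1.86, limma adjusted p = 0.9997), the 1 member with an unadjusted p under 0.05. By pair it was 1.41, 0.28 and 1.27. In the blocked limma fit the SE fell to 0.37, with an adjusted p of 0.933. By unadjusted p it ranked 692 of 45037, and 95.1% of probe sets had a log2 difference at or below its own. Leaving out phd3 null sample 1 gave 0.75, leaving out wild-type sample 3 gave 0.79, and leaving out both arrays of number 3 gave 0.85, each with an unadjusted p above 0.05.

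The second Siva1 probe set made from the same accession, 1426323_x_at, did not follow it. Its signal was 116, 75.3 and 41.3 in phd3 null, against 96.6, 150.2 and 62.9 in wild type. The groups overlapped, with phd3 null sample 1 above wild-type samples 1 and 3. Its log2 difference was -0.37 (SE 0.50, 95% interval -1.42 to 0.69), and by pair 0.23, -0.86 and -0.46. With 1 array left out it ran from -0.65 without phd3 null sample 1 to -0.053 without phd3 null sample 3, and it was -0.093 without wild-type sample 2 and -0.63 without wild-type sample 3. Here the pair with the higher phd3 null signal was pair 1, the one with the largest difference in 1452020_a_at.

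The probe set 1433680_x_at, from the expressed sequence AV216351, was at 126.3, 88.5 and 54.9 in phd3 null, against 65.7, 110.2 and 143 in wild type. The lowest and the second highest of the 6 signals were both phd3 null, so the groups overlapped widely. The log2 difference was -0.21 (SE 0.46, 95% interval -1.20 to 0.77), with pair values of 0.80, -0.27 and -1.17. Its sign rested on the arrays of number 3, with 0.049 when phd3 null sample 3 was left out, 0.0034 when wild-type sample 3 was, and 0.26 when both were.

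The last Siva1 probe set, 1418377_a_at, was designed from the reference transcript NM_013929 and was dim on all 6 arrays. Its signal was 26.5, 45.7 and 6.3 in phd3 null, against 5.2, 3.8 and 3 in wild type. All phd3 null values were above the wild-type ones, though sample 3 at 6.3 was close to wild-type sample 1 at 5.2. On the log2 scale the difference was 0.96 (SE 0.46, 95% interval -0.02 to 1.94), with 1.00, 1.64 and 0.23 by pair. Since every value lay below the array medians of 49.4 to 64.2 and no detection calls were used, the size depends on the pseudocount, with 2.10 for a pseudocount of 1 and 0.38 for 64. Leaving out phd3 null sample 2 gave 0.62 and leaving out phd3 null sample 3 gave 1.36. It was the Siva1 probe set below the median level of all probe sets, and the other 3 were above it.

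Bcl2l1 had nearly equal group means by its probe set of highest mean level, 1420888_at, made from NM_009743. Its signal was 280, 390.5 and 397.2 in phd3 null, against 362.8, 358.7 and 346.7 in wild type. Wild-type samples lay close together, and the phd3 null samples lay on both sides of them, with sample 1 below and samples 2 and 3 above. Phd3 null averaged 355.9 ± 65.8, against 356.1 ± 8.37 in wild type (SD, n = 3 each). The log2 difference was -0.02 (SE 0.30), and its 95% interval of -0.65 to 0.62 leaves room for a difference of either sign. With the replicate block the interval was -0.49 to 0.46. By pair it was -0.36, 0.12 and 0.19, and it was 0.14 without phd3 null sample 1 and -0.12 without both arrays of number 3.

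A second probe set from the same transcript, 1420887_a_at, was at 120.8, 53.4 and 67.6 in phd3 null, against 51.4, 83.2 and 88.9 in wild type. Phd3 null sample 1 was the highest of the 6 here and the lowest of the 6 in 1420888_at, so the pair with the extreme difference was the same and its sign opposite. The fitted difference was 0.06 (SE 0.50, 95% interval -0.995 to 1.11), with 1.02, -0.52 and -0.33 by pair. Leaving out phd3 null sample 1 gave -0.22, and leaving out wild-type sample 1 gave -0.14, while leaving out both arrays of number 3 gave 0.25.

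The remaining Bcl2l1 probe sets, both below the median level, carried little signal. Probe set 1426191_a_at, from U10100, was at 9.4, 8.1 and 17.2 in phd3 null, against 4.5, 9.7 and 86.1 in wild type. A single array, wild-type sample 3, stood well above the rest, and the log2 difference of -0.47 (SE 0.61) was 0.25 without it. Probe set 1426050_at, from U51279, was at 18.7, 3.2 and 22.8 in phd3 null, against 3.5, 2.3 and 33.7 in wild type. Both arrays of number 3 were the highest of their genotype in it. The log2 difference was 0.18 (SE 0.50). Left-out arrays turned its sign, to -0.015 for phd3 null sample 3, -0.029 for wild-type sample 1 and -0.074 for wild-type sample 2. Without both arrays of number 3 it was 0.45.

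**Figure D2:**
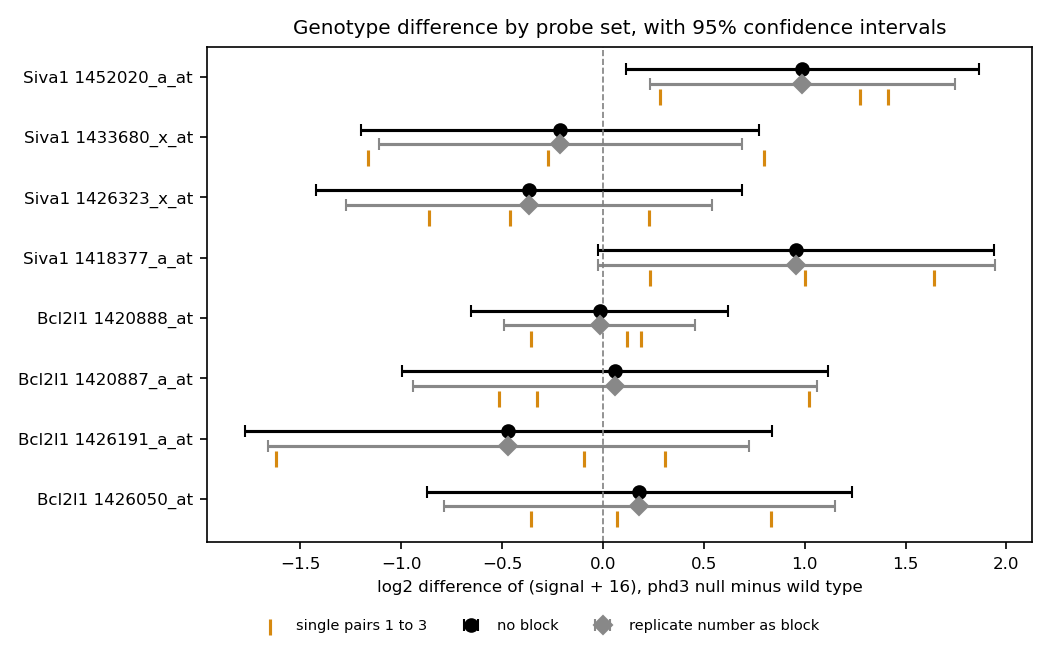
Log2 difference of (signal + 16), phd3 null minus wild type, for each probe set, from limma without a block (black circles) and with the replicate number as a block (grey diamonds), with 95% confidence intervals. Orange ticks are the 3 single pairs. The intervals of 1452020_a_at, at 0.11 to 1.86 and 0.23 to 1.74, lie above 0, and those of the other 7 probe sets include 0.

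Whether the probe sets of 1 gene differed in their genotype difference was tested within arrays. The Siva1 probe sets were known to disagree before this test was set, so its results for Siva1 are descriptions. For each probe set the log2 difference from the gene's probe set of highest mean level was taken on every array, and limma compared this difference between genotypes for all 16752 such pairs of probe sets in 9010 genes. Relative to 1452020_a_at, the Siva1 probe set 1426323_x_at shifted by -1.35 (SE 0.59, 95% interval -2.60 to -0.11) and 1433680_x_at by -1.20 (SE 0.61, 95% interval -2.48 to 0.08). The shift of 1433680_x_at was -0.79 without wild-type sample 3 and -0.58 without both arrays of number 3. The dim 1418377_a_at shifted by -0.03 (SE 0.78), with a 95% interval of -1.68 to 1.62 that is too wide to say that the 2 probe sets behaved alike. The 3 shifts within Bcl2l1, relative to 1420888_at, ran from -0.45 for 1426191_a_at to 0.20 for 1426050_at, with SEs of 0.52 to 0.69. Without both arrays of number 3 they were 0.37 for 1420887_a_at, 0.57 for 1426050_at and 0.23 for 1426191_a_at. None of the 6 shifts passed (adjusted p = 0.9999 for each), as did 0% of all pairs, and 1 of 6 had an unadjusted p under 0.05, against 4.09% of all pairs. With the replicate block 0 of 6 passed as well, against 0% of all pairs, and 1 of 6 had an unadjusted p under 0.05, against 5.29%.

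Probe sets of 1 gene often differed in sign on these arrays. The 2 larger Siva1 shifts were above most in size. Both were taken from 1452020_a_at, the Siva1 probe set of highest log2 difference, and their disagreement was known beforehand, so their ranks are descriptions. Shifts were at or below that of 1426323_x_at in 92.9% of all pairs and at or below that of 1433680_x_at in 89.6%, without regard to sign, and the median size was 0.44. The log2 differences of the 2 probe sets had opposite signs in 47.1% of the 16752 pairs, and in 44.3% of the 7118 pairs in which both were at or above the median level. Among 1093 genes with 4 probe sets, 83.6% had probe sets of both signs. The span from the lowest to the highest log2 difference was 1.35 over the Siva1 probe sets and 0.65 over those of Bcl2l1, against a median of 1.01 over the 1093 genes. These spans were at or above those of 72.4% and 24.8% of the genes. With all probe sets of a gene averaged, the log2 difference was 0.34 for Siva1 and -0.06 for Bcl2l1, neither at an unadjusted p under 0.05.

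**Figure D3:**
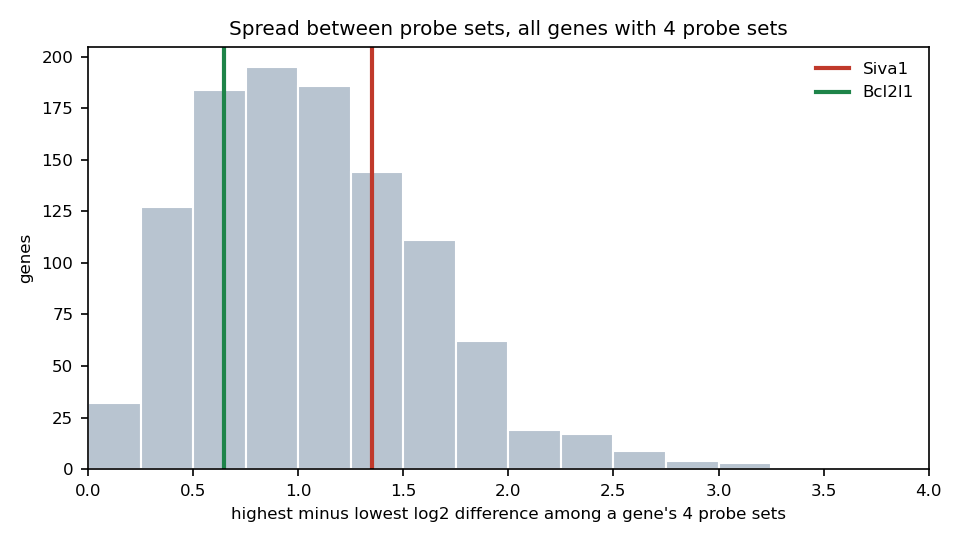
Number of genes by the span between the highest and lowest log2 difference (phd3 null minus wild type) among their probe sets, for the 1093 genes with 4 probe sets. Lines mark Siva1 at 1.35 and Bcl2l1 at 0.65, on either side of the median of 1.01.

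**Figure D4:**
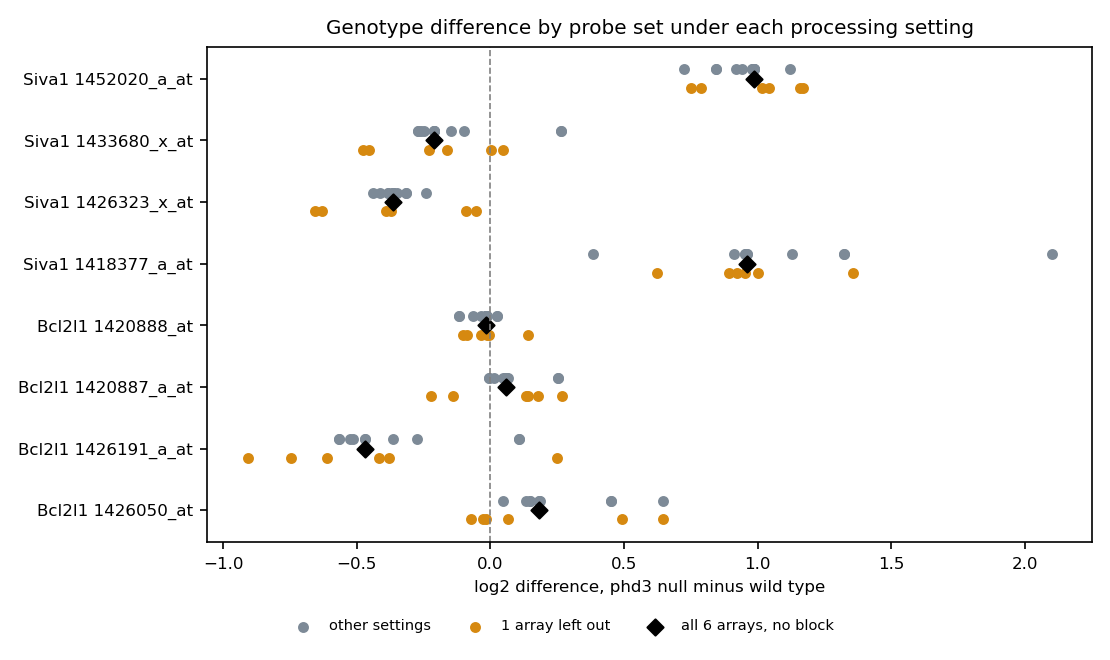
Log2 difference, phd3 null minus wild type, for each probe set with all arrays and no block (black diamonds), with 1 array left out (orange) and under the other settings (grey). For 1452020_a_at all values lie between 0.73 and 1.17, while points of 1433680_x_at and of every Bcl2l1 probe set fall on both sides of 0.

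Genes of the BCL-XL relatives, the effectors and the BH3 proteins showed no call and small median differences. Each gene is given by its probe set of highest mean level, and for all 18193 genes measured in this way the median log2 difference was 0.02, with 52% above 0 and 2.79% at an unadjusted p under 0.05. Of 7 listed anti-apoptotic relatives, Bcl2a1a, Bcl2a1b and Bcl2a1d had no probe set with their symbol alone and were not measured. Of the 4 measured, 2 were above 0 and 2 below, with a median of -0.11. With 1 array left out the median ran from -0.27 to 0.07. Mcl1, on which neutrophil survival depends in mice, was at 8962.4, 7614.7 and 6429.3 in phd3 null, against 10944.1, 6590.6 and 5341.1 in wild type, so its groups overlapped (0.06, SE 0.66). Bcl2 and Bcl2l2, which encode BCL-2 and BCL-W, gave -0.26 (SE 0.42) and -0.26 (SE 0.63). Bcl2l10, a dim member, gave 0.04 (SE 0.79).

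Of 12 listed effectors and BH3 proteins, Bax had no probe set with its symbol alone and was not measured. Of the 11 measured, 4 were above 0 and 7 below, with a median of -0.15. That median turned to 0.20 without phd3 null sample 3 and was -0.41 without phd3 null sample 1, so its sign rested on 1 array. The 4 of smallest p were the BH3-only genes Hrk (0.50, SE 0.44), Bik (0.75, SE 0.68) and Bcl2l11 (-0.40, SE 0.38), and the pore-forming effector gene Bak1 (-0.60, SE 0.58). Bcl2l11, which encodes BIM, was at 1513.2, 1628.3 and 1229 in phd3 null, against 2453.6, 2093.9 and 1351.9 in wild type, and was lower in 3 of 3 pairs, as was 1 other of the 11, the BH3-only gene Pmaip1. Bnip3 was the 1 member higher in 3 of 3 pairs (0.37, SE 1.06). Among all genes, 11.6% were lower and 13.9% higher in 3 of 3 pairs. Neither list had a member at an unadjusted limma p under 0.05, and 0 members passed in either fit.

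Known partners of SIVA1 gave 4 of 7 above 0, with a median of 0.03 that ran from -0.02 to 0.34 with 1 array left out. Mdm2, the ubiquitin ligase of p53, was at 566.7, 671.6 and 584.4 in phd3 null, against 523.5, 556.9 and 360 in wild type. Its groups did not overlap and it was higher in 3 of 3 pairs, but the difference of 0.35 (SE 0.30) was not called. Among all genes, 858 of 18193 were higher without overlap and 13.9% were higher in 3 of 3 pairs. Cd27, the receptor that SIVA1 binds, was dim, at 6.2, 9.5 and 4.2 in phd3 null, against 4.6, 34.4 and 8.9 in wild type (-0.39, SE 0.42). Xiap, a caspase inhibitor gene, gave -0.06 (SE 0.34). Cdkn2a and Tnfrsf18 gave 0.56 (SE 0.68) and 0.31 (SE 0.62), with overlapping groups in each.

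Siva1 is a known target of p53 and E2F1, and Bcl2l1 of STAT5 and NF-kB factors. Of 9 listed regulators, the p53 gene Trp53 and the NF-kB gene Nfkb1 had no probe set with their symbol alone and were not measured. Of the 7 measured, 2 were above 0, with a median of -0.11 (-0.17 to 0.0045 with 1 array left out). E2f1 had the smallest p of them, at 104.4, 49.6 and 124.9 in phd3 null, against 1.7, 68.4 and 53.7 in wild type, with wild-type sample 2 above phd3 null sample 2 (1.14, SE 0.68). Ets2, Stat5b and Stat5a gave -0.35 (SE 0.38), -0.24 (SE 0.36) and -0.15 (SE 0.48). Of 12 measured p53 targets 4 were above 0, with a median of -0.10 (-0.15 to 0.12 with 1 array left out). Those of smallest p were Ccng1 (-0.47, SE 0.39), Mdm2 as above, the death receptor gene Eda2r (0.63, SE 0.61) and Trp53inp1 (-0.32, SE 0.36). The p53 effector Cdkn1a was at 1233.1, 845.2 and 366.8 in phd3 null, against 981.5, 722.5 and 670 in wild type (-0.10, SE 0.40).

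E2F target genes had 8 of 11 members above 0 and a median of 0.30. Leaving out wild-type sample 1 gave a median of -0.06, leaving out wild-type sample 2 gave 0.03, leaving out phd3 null sample 2 gave 0.11, leaving out wild-type sample 3 gave 0.70, and leaving out both arrays of number 3 gave 0.75. Ccne1, which encodes cyclin E1, was at 118.6, 87.1 and 168.9 in phd3 null, against 38.9, 23.4 and 29.6 in wild type. Its groups did not overlap, and the log2 difference of 1.57 (SE 0.52) had an unadjusted p under 0.05 and did not pass over all probe sets. Among all genes, 858 of 18193 were higher without overlap and 2.79% had an unadjusted p under 0.05. The minichromosome maintenance gene Mcm2 gave 0.74 (SE 0.71) and Tk1, thymidine kinase, -0.49 (SE 0.48). Pcna, the DNA polymerase clamp, was the 1 member lower in 3 of 3 pairs (-0.40, SE 0.50), and 2 members were higher in 3 of 3. Among all genes these shares were 11.6% and 13.9%.

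**Figure D5:**
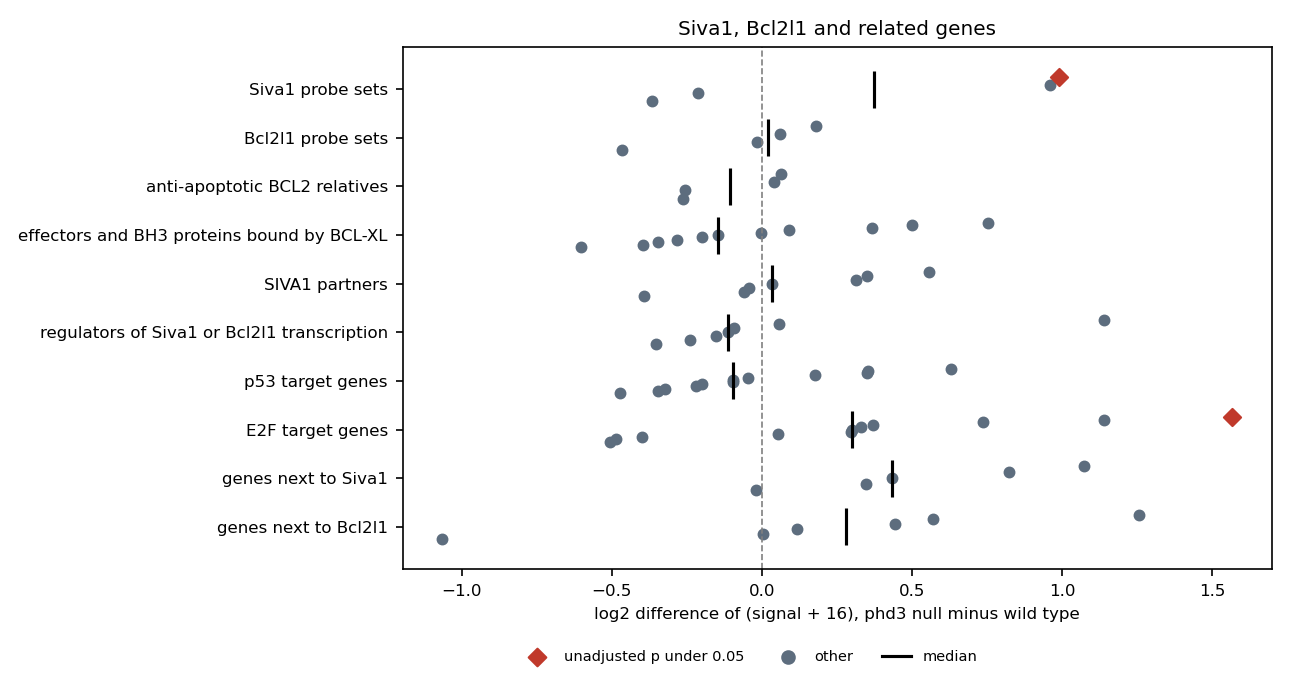
Log2 difference of (signal + 16), phd3 null minus wild type, for the Siva1 and Bcl2l1 probe sets, for the members of 6 related gene lists by their probe set of highest mean level, and for measured genes next to Siva1 or Bcl2l1. Vertical bars are medians and red diamonds an unadjusted limma p under 0.05, which here are Siva1 1452020_a_at at 0.99 and Ccne1 at 1.57.

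The 250 bases before the transcription starts are shown because the cells were hypoxic and Siva1 is a known E2F1 target. They are from RefSeq on mouse build GRCm38.p6, Siva1 with 1 start (chr12:112644578-112644827, plus strand) and Bcl2l1 with 3, of which those with a match are printed (start 2, chr2:152830718-152830967, and start 3, chr2:152831729-152831978, both minus strand). Capitals mark the HIF core ACGTG or GCGTG, the E2F motifs TTTCCCGC, TTTCGCGC, TTTGCCGC or TTTGGCGC, and the STAT motif TTCNNNGAA, on either strand.
Siva1: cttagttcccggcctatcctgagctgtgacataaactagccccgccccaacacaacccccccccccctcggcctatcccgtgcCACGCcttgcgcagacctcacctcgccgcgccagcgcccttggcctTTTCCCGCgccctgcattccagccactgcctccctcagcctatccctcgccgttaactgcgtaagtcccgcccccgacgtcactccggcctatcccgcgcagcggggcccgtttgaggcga
Bcl2l1 start 2: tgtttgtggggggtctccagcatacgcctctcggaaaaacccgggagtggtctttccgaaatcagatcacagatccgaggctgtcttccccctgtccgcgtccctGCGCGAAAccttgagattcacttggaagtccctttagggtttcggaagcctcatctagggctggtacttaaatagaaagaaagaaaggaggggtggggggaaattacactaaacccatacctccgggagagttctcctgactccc
Bcl2l1 start 3: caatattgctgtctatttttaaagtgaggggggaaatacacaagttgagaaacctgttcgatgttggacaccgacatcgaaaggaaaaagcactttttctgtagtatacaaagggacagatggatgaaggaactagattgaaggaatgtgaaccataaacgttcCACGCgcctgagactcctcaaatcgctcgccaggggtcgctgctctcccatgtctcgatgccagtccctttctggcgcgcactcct

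The Siva1 window held the HIF core on its minus strand at 167 to 163 bases before the start and the E2F motif TTTCCCGC at 121 to 114 bases before it, with no overlap between them. Start 2 of Bcl2l1 held the E2F motif TTTCGCGC on the opposite strand at 145 to 138 bases before the start, and start 3 held the HIF core at 86 to 82 bases before it. Of 32851 such windows in the table, 38.6% held a HIF core, 1.86% one of the E2F motifs and 7.02% the STAT motif, which none of the windows of these genes held. A match describes the letters of the window and not binding.

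Siva1 and Egln3 lie on the same chromosome in the gene table, with 436 protein-coding genes between them. Of the 6 nearest protein-coding genes of Siva1, 5 were measured, and 4 of these were above 0. Inf2, a formin gene on the upstream side, was at 150.7, 113.9 and 184.7 in phd3 null, against 83.2, 68.7 and 77.8 in wild type, with no overlap between the groups (0.82, SE 0.40). Akt1, the survival kinase gene that follows Siva1, gave 0.43 (SE 0.36) and Zbtb42 0.35 (SE 0.40), and with Inf2 they made 3 of 5 neighbours higher in 3 of 3 pairs. Adssl1, which lies between Inf2 and Siva1, gave -0.02 (SE 0.59). Next to Bcl2l1, 5 of 6 neighbours were above 0 and 2 were higher in 3 of 3 pairs, Id1, an inhibitor of basic helix-loop-helix factors, at 0.57 (SE 0.43) and Mcts2 at 0.44 (SE 0.54). Their groups overlapped. Cox4i2 was the Bcl2l1 neighbour below 0 (-1.07, SE 0.71), and Mylk2 had the highest difference there (1.26, SE 0.71). Next to Siva1 the highest was Tmem179 (1.07, SE 0.73). The groups overlapped for Cox4i2, Mylk2 and Tmem179 as well, and 0 of the neighbours of either gene passed in either fit. Among all genes 52% were above 0 and 13.9% were higher in 3 of 3 pairs. All phd3 null signals lay above all wild-type signals, as for Inf2, in 858 of 18193 genes.

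The profiles most like each gene were sought among single-symbol probe sets of other genes at or above the median level, by Pearson correlation over the 6 arrays with 1452020_a_at for Siva1 and 1420888_at for Bcl2l1. For Siva1 these were Iqgap1 (0.983), Synm (0.976), Prune1 (0.975), B330016D10Rik (0.974) and Usp28 (0.971). The Iqgap1, Synm and Prune1 probe sets had higher signals in every phd3 null sample than in any wild-type sample, as had 4.97% of all probe sets. They were picked for likeness to 1452020_a_at, whose groups do not overlap, so this is no separate result. For Bcl2l1 they were Ccdc124 (0.996), Def8 (0.995), Gnrhr (0.988), Tnpo3 (0.984) and Srprb (0.981), each with its lowest signal in phd3 null sample 1. After each pair's mean was removed, the first of the order were Gatad2a, Ywhaq, Spire1, Ggt5 and Psip1 for Siva1 and Csnk1d, Rbm39, B4galt6, Gm15743 and Tbc1d9b for Bcl2l1. These genes were picked for their likeness from 18073 candidates, so the correlations are descriptions.

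Among markers of other cells, those of natural killer cells had the lowest median of the lists measured with all 6 arrays. All 7 measured members were below 0, 5 of them in 3 of 3 pairs, with a median of -1.02, while 11.6% of all genes were lower in 3 of 3 pairs. Without the block 1 of the 7 had an unadjusted p under 0.05, against 2.79% of all genes. With the replicate block 4 of the 7 had one, against 5.52%, and 0 passed in either fit. The median was -0.15 when phd3 null sample 1 was left out, -0.60 for wild-type sample 2, -1.56 for phd3 null sample 2 and -1.54 for wild-type sample 1. Their summed signal was 491.5, 2790 and 2246 in phd3 null, against 1364, 5928 and 3419 in wild type, lowest in phd3 null sample 1. Siva1 1452020_a_at was highest in that sample, at 247.2. Among wild-type samples it was highest in sample 2, at 105, where the marker sum was also highest. The 6 measured T cell markers summed to 292.3, 217.2 and 571.4 in phd3 null, against 180.4, 374.1 and 399.3 in wild type. The 4 measured erythroid markers summed to 777.7, 3846 and 6894 in phd3 null, against 2614, 5996 and 4779 in wild type. In both genotypes sample 1 had the lowest sum. Bcl2l1 1420888_at in sample 1 was the lowest of the phd3 null signals, at 280, but the highest of the wild-type signals, at 362.8. The 6 platelet markers summed to 433.4, 468.5 and 726.6 in phd3 null, against 462, 475.6 and 398 in wild type. The part of these cells in the Siva1 and Bcl2l1 signals was not tested.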

How the data were processed

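The authors deposited linear MAS5 intensities, 1 per probe set and array. The submitters' processing notes name MAS5 with no version. Trimmed by 2% of probe sets per end, the mean intensity was 100 on every array. Of 45101 probe sets, 64 controls were left out. By platform annotation 34945 of those kept carried 1 symbol, 932 several and 9160 none.

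All 45037 remaining probe sets were compared between genotypes by limma 3.58.1 (R 4.3.3) on log2(signal + 16), with eBayes, a trend, two-sided tests and Benjamini-Hochberg adjustment. No filter was set on low values. Of the 8 probe sets of Siva1 and Bcl2l1, 5 were at or above the median level. The code was tested on simulated data. Only 6 arrays limit the precision.

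Sample numbers were taken to pair the arrays because same-numbered samples share a source code. After group means were removed, same-numbered arrays correlated at 0.125, 0.0643 and 0.232 over all probe sets, and at 0.264, 0.137 and 0.435 over those at or above the median level. Among these brighter probe sets, phd3 null sample 2 correlated at 0.147 with wild-type sample 1, so samples 1 and 2 are not told apart by this check.

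The genes and lists were chosen with earlier results of these data known. Named are all probe sets of both genes, Egln3, sex-linked genes, neighbours in the RefSeq gene table of GRCm38.p6, and the 5 most similar profiles. In lists of related genes, the members of smallest p are named, with others singled out for their role. Lists of cell markers are given by count, median or sum, and their named members were not chosen by p. Alternatives covered the pseudocount, a filter, quantile normalization, median centring, the replicate block, the prior trend, array weights and left-out arrays.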

Additional observations from a re-analysis of the deposited data

How the results depend on the processing

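No alternative gave a call for any of the 8 probe sets or the 6 differences between probe sets of a gene. Siva1 1452020_a_at stayed above 0 in all 18 alternatives, with an unadjusted p under 0.05 in 15, and Siva1 1426323_x_at stayed below 0 in 18. Calls over all probe sets were 0 with no block, 6 with the replicate block, 3 with the replicate block and the filter, 5 with the replicate block and quantile normalization, 1 with array weights, 5 without both arrays of number 3, and from 0 to 6 with 1 array left out. With the block and without both arrays of number 3, an alternative chosen after seeing the data, there were 102. Differences between probe sets of a gene were called in 0 pairs, 1 without both arrays of number 3 and 3 with the block added to that. The cause was not tested. The replicate block changed no call of Siva1 or Bcl2l1.

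Without both arrays of number 3, with or without the block, Siva1 1433680_x_at was at 0.26 and Bcl2l1 1426191_a_at at 0.11. The shift of Siva1 1418377_a_at from 1452020_a_at was then 0.48, and that of Bcl2l1 1426191_a_at from 1420888_at 0.23. With quantile normalization, with or without the block, Bcl2l1 1420888_at was at 0.024, 1420887_a_at at -0.0036 and the shift between them -0.028. The shift of Siva1 1418377_a_at was 0.98 with a pseudocount of 1 and 0.20 with array weights. With 1 array left out, log2 differences ran from -0.48 to 0.049 for Siva1 1433680_x_at, -0.10 to 0.14 for Bcl2l1 1420888_at, -0.22 to 0.27 for 1420887_a_at, -0.91 to 0.25 for 1426191_a_at and -0.074 to 0.65 for 1426050_at. Shifts ran from -0.55 to 0.31 for Siva1 1418377_a_at, and for Bcl2l1 from -0.36 to 0.36 for 1420887_a_at, -0.074 to 0.68 for 1426050_at and -0.90 to 0.28 for 1426191_a_at. Medians of 13 gene lists moved by more than the spread between pairs in 28 of 234 values. The 3 probe sets below the median level gave no value with the filter on low values.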
